A study of Mus musculus with 4 samples.

Results

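The Klf, Sp and Egr genes encode transcription factors with C2H2 zinc fingers that bind GC-rich DNA. They were taken by symbol from the protein-coding genes of the GENCODE mouse annotation: Klf followed by a number, Sp followed by 1 digit, and Egr1 to Egr4. This gave 30 genes of the 21670 protein-coding genes outside chromosomes Y and M, of which 17 were Klf, 9 Sp and 4 Egr genes. They have 73 annotated protein-coding starts. What was measured is trimethylation of lysine 4 of histone H3 (H3K4me3), a histone mark that lies over the starts of active and poised genes, by chromatin immunoprecipitation and sequencing of whole heart tissue. The hearts came from female B6CASTF1/J mice aged 2 months, an F1 hybrid of C57BL/6J and CAST/EiJ, processed with a protocol for frozen tissue. There was 1 condition, with no treatment, mutation or other tissue. The 4 libraries were 2 technical replicates each of pool G and pool H, every pool joined 2 heart biosamples, and all labels name the same donor record, so nothing says that the pools held separate animals. The values are 4 peak lists on mm10: 1 of pool G, 1 of pool H, and 2 of both pools, called replicated and pseudoreplicated in the deposited notes. The replicated list is used unless another is named.

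Klf and Sp proteins bind GC boxes and CACCC boxes through their fingers, and differ in what they recruit: some Klf proteins act mainly as activators, others bring the corepressors CtBP or Sin3. Sp1 and Sp3 are made in nearly all cells and drive many promoters without a TATA box, whereas Sp5 to Sp9 act mostly in the embryo. The Egr genes are known as immediate-early genes, switched on soon after a stimulus, in part through serum response factor bound to CArG boxes. In the heart, Klf2 and Klf4 are known as endothelial genes that respond to blood flow through Erk5 and Mef2, and Klf15 as a regulator of metabolism in heart muscle.

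The promoters of a few members are shown first, because the comparisons below turn on their base composition and on these motifs. They are the bases before the start in RefSeq, on GRCm38.p6 (mm10), 5′ to 3′ on the gene's own strand and ending at or just before the first exon base. Capitals mark motifs found on either strand: GGGCGG or CCGCCC is a GC box, CCACACCC or GGGTGTGG a CACCC box, and the capital runs in Egr2 that begin with CC and end with GG are CArG boxes. The capital run CTAAATTTAG in Klf2 is a MEF2 site. The sequences are those of the C57BL/6J reference, and CAST/EiJ alleles are not shown. Klf2, Klf4 and Klf9 lie in wide domains, Klf15 in a narrower one, Egr2 is shown at 2 of its 4 RefSeq starts with a CArG box in the promoter, Egr4 carried a weak peak, and Klf17 carried none.
Klf2, chr8:72318812-72319032, plus strand: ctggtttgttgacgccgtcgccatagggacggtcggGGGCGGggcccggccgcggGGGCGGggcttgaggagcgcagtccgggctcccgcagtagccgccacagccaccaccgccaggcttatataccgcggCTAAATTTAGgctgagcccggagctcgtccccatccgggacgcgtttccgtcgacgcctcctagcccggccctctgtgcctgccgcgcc
Klf4, chr4:55532476-55532725, minus strand: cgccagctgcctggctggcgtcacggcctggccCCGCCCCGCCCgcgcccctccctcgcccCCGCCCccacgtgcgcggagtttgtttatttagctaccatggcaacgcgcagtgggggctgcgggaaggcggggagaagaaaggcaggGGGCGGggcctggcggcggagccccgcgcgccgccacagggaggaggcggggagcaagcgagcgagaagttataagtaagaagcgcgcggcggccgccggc
Klf9, chr19:23140976-23141225, plus strand: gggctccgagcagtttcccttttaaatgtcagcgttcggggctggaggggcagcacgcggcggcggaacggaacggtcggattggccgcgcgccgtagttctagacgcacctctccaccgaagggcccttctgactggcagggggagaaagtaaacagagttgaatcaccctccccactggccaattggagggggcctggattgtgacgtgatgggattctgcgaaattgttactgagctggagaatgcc
Klf15, chr6:90462326-90462575, plus strand: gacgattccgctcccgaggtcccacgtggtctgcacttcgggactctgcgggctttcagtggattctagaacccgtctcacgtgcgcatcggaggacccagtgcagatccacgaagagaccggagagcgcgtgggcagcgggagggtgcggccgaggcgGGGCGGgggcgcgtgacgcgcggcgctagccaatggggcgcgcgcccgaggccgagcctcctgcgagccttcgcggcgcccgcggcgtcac
Egr2, chr10:67537316-67537565, plus strand: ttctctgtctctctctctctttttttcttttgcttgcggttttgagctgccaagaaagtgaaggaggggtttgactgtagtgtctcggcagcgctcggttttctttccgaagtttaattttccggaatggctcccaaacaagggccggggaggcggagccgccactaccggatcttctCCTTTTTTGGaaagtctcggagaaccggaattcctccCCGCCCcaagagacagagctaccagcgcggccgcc
Egr2, chr10:67537619-67537868, plus strand: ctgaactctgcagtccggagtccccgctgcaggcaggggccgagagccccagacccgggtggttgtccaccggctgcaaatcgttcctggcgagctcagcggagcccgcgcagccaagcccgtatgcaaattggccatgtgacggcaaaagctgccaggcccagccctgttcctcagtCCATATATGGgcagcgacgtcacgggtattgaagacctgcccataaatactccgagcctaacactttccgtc
Egr4, chr6:85513590-85513839, minus strand: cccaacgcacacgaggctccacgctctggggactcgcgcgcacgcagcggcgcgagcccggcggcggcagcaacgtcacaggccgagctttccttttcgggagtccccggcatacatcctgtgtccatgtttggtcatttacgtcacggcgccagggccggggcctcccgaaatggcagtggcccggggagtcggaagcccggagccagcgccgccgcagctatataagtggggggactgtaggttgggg
Klf17, chr4:117765667-117765916, minus strand: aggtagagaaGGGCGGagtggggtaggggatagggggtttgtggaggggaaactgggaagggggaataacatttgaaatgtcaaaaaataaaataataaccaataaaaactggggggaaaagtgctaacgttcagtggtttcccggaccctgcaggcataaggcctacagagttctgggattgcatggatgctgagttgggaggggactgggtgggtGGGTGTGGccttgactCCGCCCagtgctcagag

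RefSeq promoters of 250 bases before to 50 bases after the start were matched by symbol for 22 of the 30 members. Egr1, Egr3, Klf5, Klf10, Klf14, Klf16, Sp6 and Sp7 were not matched. A GC box was in the promoter of 17 of the 22, a share of 77.3%, against 51.3% of 16426 protein-coding genes and 70.2% of those genes that carried a promoter peak. The members' share was thus nearer to that of marked genes than to that of all genes. The members without a GC box in this window were Klf1, Klf9, Klf12, Sp5 and Egr4. Klf9, whose domain was among the widest, is one of these, and Klf17, with 2 GC boxes and a CACCC box in its printed promoter, had no peak. The CACCC box CCACACCC was in 2 of the 22, Klf12 and Klf17 (4.29% of all genes). The CArG box was in 2, Egr2 and Klf8 (1.76%), and the MEF2 site in 1, Klf2 (3.07%). TATAAA was in 2, Klf12 and Sp8 (14.3%), and the Egr site GCGTGGGCG (1.02%) and the cAMP response element TGACGTCA (2.65%) were in 0. In the same window at the start of each member's longest GENCODE transcript, a GC box was in 20 of 30 members, 66.7%, against 45.6% of all genes. Klf12 was among these 20, with neither CCACACCC nor TATAAA. Its matched RefSeq promoter, at chr14:100149797-100150046, belongs to an internal start and had no peak over it in the replicated list or in either pool's list. In the GENCODE window the MEF2 site was in 2 of 30 members, Klf2 and Klf6 (2.71% of all genes), and the CArG box in Egr2 alone (1.46%). These counts say only which letters are present.

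The label heart was checked against marker genes. Peaks lay at the promoters of all 7 cardiomyocyte markers, all 6 endothelial markers, all 5 fibroblast markers and 4 of 5 mural markers, Rgs5 being the exception. They lay at 0 of 5 immune markers, 0 of 3 hepatocyte markers and 1 of 3 neuronal markers (Syt1). Of the erythroid markers reported, Epor had a peak and Hbb-bs, Hba-a1 and Gata1 had none. The replicated list held 24996 peaks, pool G's 24826 and pool H's 21505. In whole tissue, a gene marked in fewer cells and a gene with less mark in each cell cannot be told apart.

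Most Klf, Sp and Egr genes carried the mark. A gene is called marked here where a peak overlapped by at least 1 bp the window of 1000 bp on either side of any of its protein-coding starts. By this rule 26 of the 30 members (86.7%) were marked, against 63% of all protein-coding genes. Pool G's list marked 27 members (63.4% of all genes), pool H's list 25 (61.3%) and the pseudoreplicated list 25 (63.4%). In all 4 lists together, 25 members were marked, against 61.1% of all genes. All 4 Egr genes, Sp1 to Sp4 and 16 of the 17 Klf genes were marked in the replicated list. The developmental group Sp5 to Sp9 had 2 of 5 marked, Sp5 and Sp8.

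This share went along with base composition. A promoter is called high-CpG where, in the 1000 bp on either side of a start, CpG reaches at least 0.6 of its expected number and G and C make up at least 50%. Of the members, 26 of 30 were high-CpG, against 33.7% of all genes, and the exceptions were Klf1, Klf8, Klf17 and Sp7. Of the high-CpG members 24 of 26 (92.3%) were marked, against 96.7% of all high-CpG genes. Of the other members 2 of 4 were marked, against 46% of all other genes. In pool G's list 25 of 26 high-CpG members (96.2%) were marked, against 96.8% of all high-CpG genes. Pool H's list marked 23 of 26 (88.5%), against 95.4%. With so few members, these shares are not read as a difference from all genes of the same class.

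The members without a promoter peak in the replicated list were Klf17, Sp6, Sp7 and Sp9, genes known from the early embryo and germ line, teeth, bone and the developing limb and brain. Klf17, Sp6 and Sp7 were unmarked in all 4 lists, as were 36% of all genes. The peak nearest to a Klf17 start lay 21671 bp away, with a width of 483 bp and a fold enrichment of 2.69. Here and below, the fold enrichment is the authors' signal value for a peak, read as a ratio over a control, and it describes peaks within their own list. The nearest peak to Sp7, the bone factor osterix, lay 9497 bp away, between Sp7 and Sp1 at chr15:102376465-102377902, with a fold enrichment of 14.9 in the replicated list, 15.8 in pool G and 14.4 in pool H. For Sp6 a peak at chr11:97021491-97022796 lay inside the gene, over an exon and 2758 bp from the nearest start, with a fold enrichment of 14.8. So Sp6 and Sp7 each had a strong peak nearby that lay away from any annotated start.

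Sp9 and Egr4 were marked in pool G's list and not in pool H's, as were 2.27% of all genes. Sp9 had a domain of 1987 bp with a fold enrichment of 4.51 in pool G. In the replicated list its nearest peak lay 1218 bp from the start, 440 bp wide with a fold enrichment of 3.61, and in pool H 2035 bp from it, 730 bp wide with 3.84. Sp9 therefore had weak peaks in both pools within its gene. Pool G's peak between 837 and 1683 bp after the start had no counterpart in pool H's list. In the replicated list, whether Sp9 counts as marked rests on the distance. With a window of 2000 bp, 27 members were marked in that list, while pool H's nearest Sp9 peak lies outside such a window. Egr4 had a peak of 361 bp with a fold enrichment of 2.87 in the replicated list, 395 bp with 3.03 in pool G, and none within 10483 bp in pool H. It was the narrowest and weakest of the marked members, and it was also unmarked in the pseudoreplicated list.

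**Figure D1:**
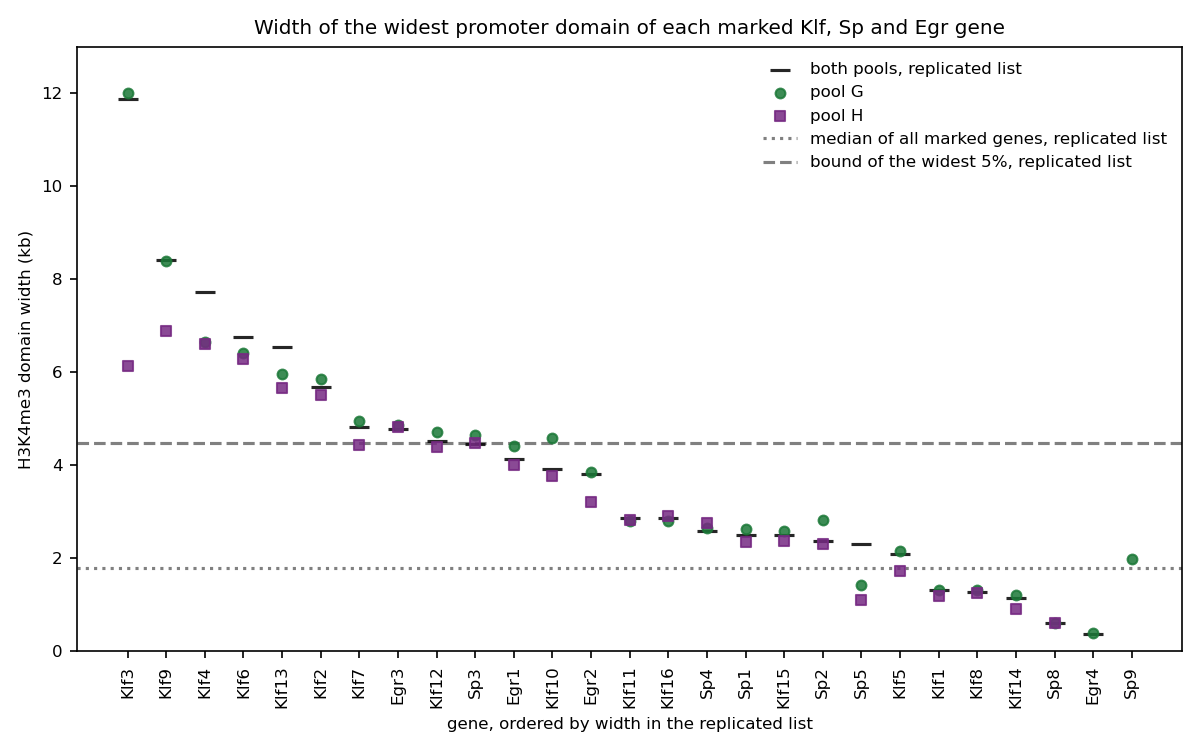
Width in kb of the widest promoter domain of each marked gene, with gaps of up to 1 kb joined. Bars are the replicated list, circles pool G and squares pool H. The dotted line is the median of all marked genes in the replicated list (1799 bp) and the dashed line the bound of its widest 5% (4482 bp). Klf3 stands highest in the replicated list and in pool G, at 11878 and 12001 bp, and lies at 6128 bp in pool H.

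Where marked, these genes had wide domains. Neighbouring peaks with gaps of up to 1000 bp between them count as 1 domain, and a gene's width is that of the widest domain touching its promoter windows. The median width of the 26 marked members was 3339.5 bp, against 1799 bp over 13657 marked genes. Over the 25 members marked in all 4 lists the pools gave medians of 3865 bp (G) and 3206 bp (H), 3535.5 ± 466.0 bp (SD, n = 2 pools), against 1932 and 1683 bp, 1807.5 ± 176.1 bp, over the 13244 genes marked in all lists. In each pool the members' median was thus above that of all genes by more than the distance between the pools. Among high-CpG genes alone the medians were 3864 bp for the members and 2120 bp for all. In the replicated list 21 of the 26 members lay above the median width of all marked genes, and 13 had domains of at least 3000 bp, against 15% of marked genes. Sp5 lay above that median in this list alone, where a weak peak of 256 bp, with a fold enrichment of 2.11, was joined to its domain. The pseudoreplicated list gave the same widths for 24 of the 25 members marked in it, the exception being Sp5 with 1384 bp, but it is not independent: 24037 of the 24996 replicated peaks have the same ends in it.

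Of the 26 marked members, 9 (34.6%) were in the widest 5%, which began at 4482 bp, against the 5% that this bound fixes. They were Klf2, Klf3, Klf4, Klf6, Klf7, Klf9, Klf12, Klf13 and Egr3, so 8 were Klf genes and none was an Sp gene. Klf12 lay just inside the bound with 4525 bp and Sp3 just outside with 4463 bp. Pool G's own list held 8 of these 9, without Klf12, and pool H's own list held 11, with Sp3 and Egr1 added. The 8 without Klf12 were among the widest 5% in all 4 lists. The bound itself was 4725 bp in pool G's list and 3954 bp in that of pool H. In the widest 2% were 5 members, Klf3, Klf9, Klf4, Klf6 and Klf13, against 2.01% of marked genes.

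The widest domain in the replicated list was that of Klf3, a repressor that recruits CtBP, at chr5:64802321-64814198. It was 11878 bp in the replicated list, rank 14 of all marked genes. Pool G had 12001 bp and pool H 6128 bp, 9064.5 ± 4153 bp over the pools. This was the one member whose pools differed by more than 1.5 times, as 10.2% of genes marked in both pools did, and 3.56% had a width in pool G at least as many times that in pool H. In pool G, 3 peaks ran with short gaps from position -1171 to 10830 relative to the first start, in bp with negative values before it. In pool H the first domain ended at 5213 and a separate domain of 2319 bp ran from 7978 to 10297, near later starts of Klf3. Both pools therefore held mark out to a like distance, and the gap in pool H was longer than the joining distance. Klf9 was wider than Klf3 in pool H (6893 bp), with no gaps joined (7100 against 6312 bp) and with gaps of up to 3000 bp joined (19339 against 11878 bp), and with -log10 q of at least 5 Klf3 measured 7884 bp. The domain also covers the starts of the non-coding genes C230096K16Rik and Gm20033, and whose start the mark belongs to cannot be told apart.

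Klf9, a factor that recruits Sin3 and is induced by glucocorticoid and thyroid hormone, had a domain of 8415 bp in the replicated list, while pool G's measured 8400 bp and pool H's 6893 bp. It lies at chr19:23139827-23148241, rank 70. A single peak of 7100 bp made up most of it in the replicated list. Klf13, also a partner of Sin3, had 6545 bp in the replicated list and, in pools G and H, 5967 and 5669 bp, 5818 ± 211 bp over the pools. A separate domain of 1560 bp with a fold enrichment of 5.02 lay at an internal Klf13 start, chr7:63924192-63925751, and was present in both pools, with 1638 bp (G) and 1413 bp (H). The main domain of Klf13 lies at chr7:63933531-63940075.

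The endothelial factors Klf2 and Klf4 had domains in the replicated list that held the whole gene body, from the start to past the end, which 1.41% of marked genes had. For Klf2 this was so in both pools as well, whereas in neither pool did the Klf4 domain reach the end of the gene. Klf4, at chr4:55526422-55534154, measured 7733 bp in the replicated list (rank 96) and, in pools G and H, 6642 and 6599 bp, 6620.5 ± 30.4 bp over the pools. The replicated list reached past the gene's end only through 1 more small peak, 216 bp wide with a fold enrichment of 2.19. Klf2, at chr8:72318555-72324245, measured 5691 bp in the replicated list and, in pools G and H, 5847 and 5517 bp, 5682 ± 233 bp over the pools. The genes are short, 5324 bp for Klf4 and 2624 bp for Klf2. Klf6, an activator induced after injury, had 6767 bp in the replicated list, with 6426 and 6295 bp in pools G and H, over 65.2% of its gene body. For Klf2, Klf4 and Klf6 the pools thus differed little beside the widths themselves.

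**Figure D2:**
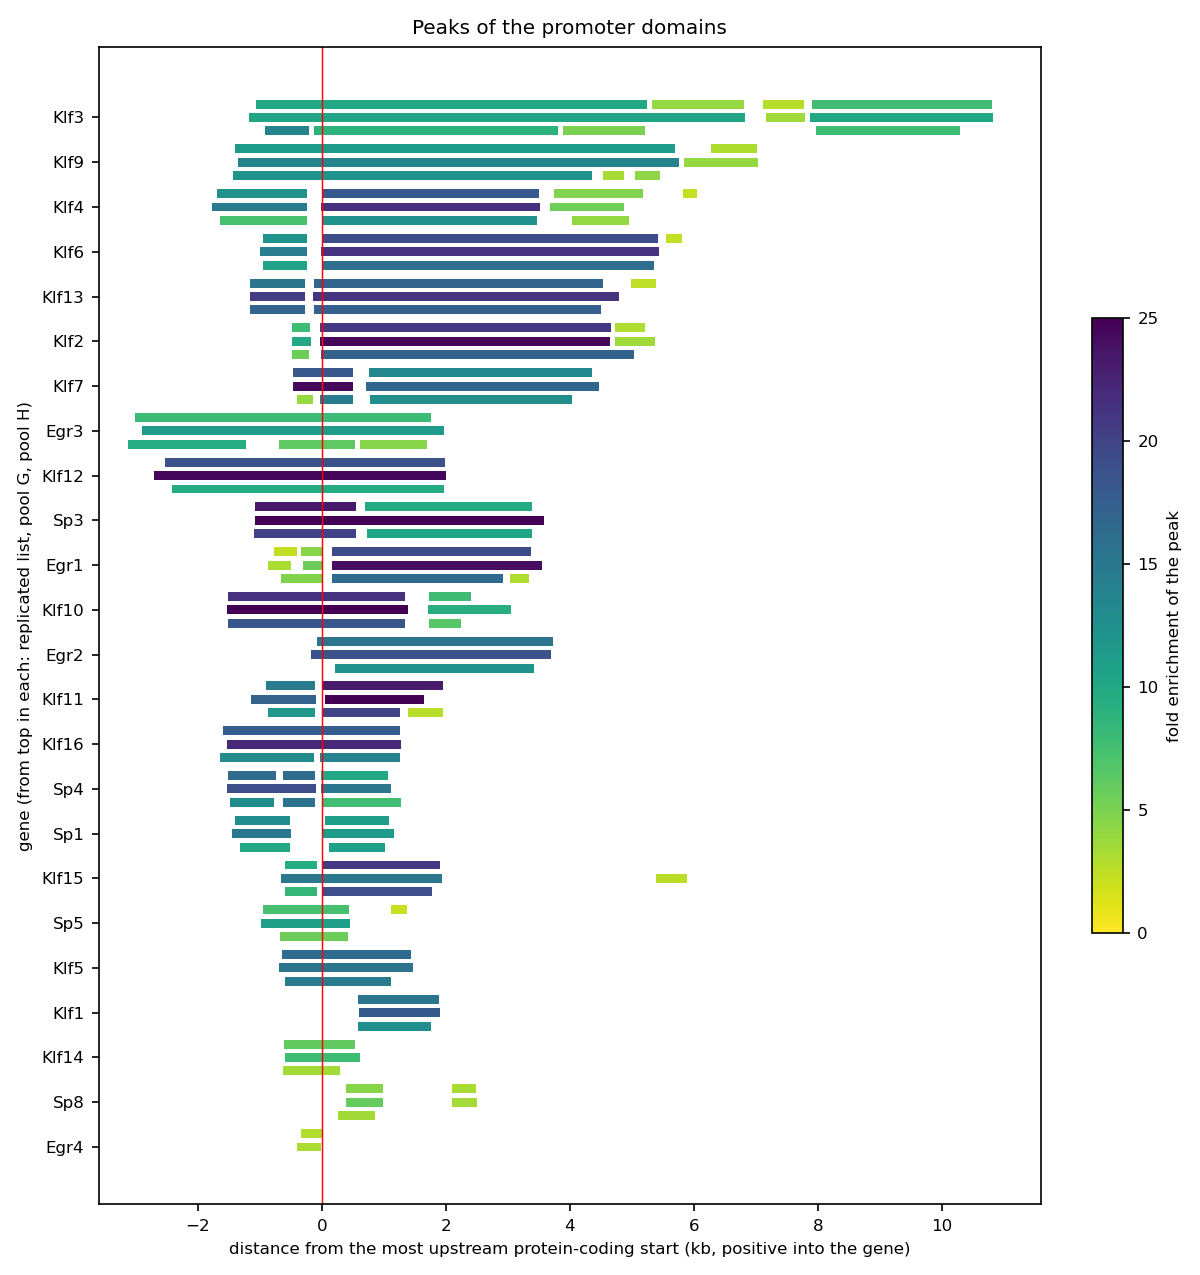
Peaks of the promoter domains of 24 marked genes, by distance in kb from the gene's most upstream protein-coding start (red line, positive into the gene). In each gene the rows are, from the top, the replicated list, pool G and pool H, and the colour is the fold enrichment of the peak. Most domains reach farther into the gene than away from it. In the replicated list those of Egr3, Klf12, Klf14, Klf16, Sp1, Sp4 and Egr4 reach farther away. A gap lies at the start of Klf4 and Klf6, among others, and at that of Klf15 in the replicated list and pool H. Klf8 and Sp2 are left out, as their strongest domains lie far from the first start, and so are peaks of other genes far from it.

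The joined domains were made of more peaks than those of most genes. A domain of at least 3 peaks was found at 7 of the 26 members, Klf2, Klf3, Klf4, Klf6, Klf13, Sp4 and Egr1, against 4.83% of marked genes, and a domain of 1 peak at 10, against 75.6%. The widest single peak had a median width of 2773 bp in the members and 1629 bp in all genes, so the difference was present without joining. At several members a gap between peaks lay just before the start. In the replicated list it ran from position -243 to -4 at Klf4, from -237 to -1 at Klf6 and from -188 to -24 at Klf2, in bp from the first start. At Egr1 it lay just after the first start, from 25 to 162. The printed Klf2 and Klf4 promoters, with their GC boxes, thus fall mainly in such a gap, inside the domain but largely between its peaks.

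A GENCODE start of the gene lay under a peak in 24 of the 26, against 93.4% of marked genes, and the exceptions were Klf1 and Sp8. At Sp8 a RefSeq start, chr12:118847233, did lie under the peak. The domain reached farther downstream than upstream in 19, against 82.2%. Median reach was 949 bp upstream and 1929 bp downstream in the members, against 566 and 1135 bp in all marked genes. The median share of the gene body covered was 16.0%, against 4.64%, in genes with a median length of 10857 bp, against 25161 bp. At least 50% of the body was covered in 5 members, Klf2, Klf4, Klf6, Egr1 and Egr2, against 4.8% of marked genes. No member's domain held the start of another protein-coding gene, which 19.2% of marked genes' domains did. Non-coding starts lay in the domains of 4, Klf3, Klf12 (Gm41231), Klf16 (Gm26710) and Sp3 (Sp3os), against 13.5%. More than 1 separate promoter domain was found at 4, Klf8, Klf13, Sp2 and Sp8, against 6.44%.

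**Figure D3:**
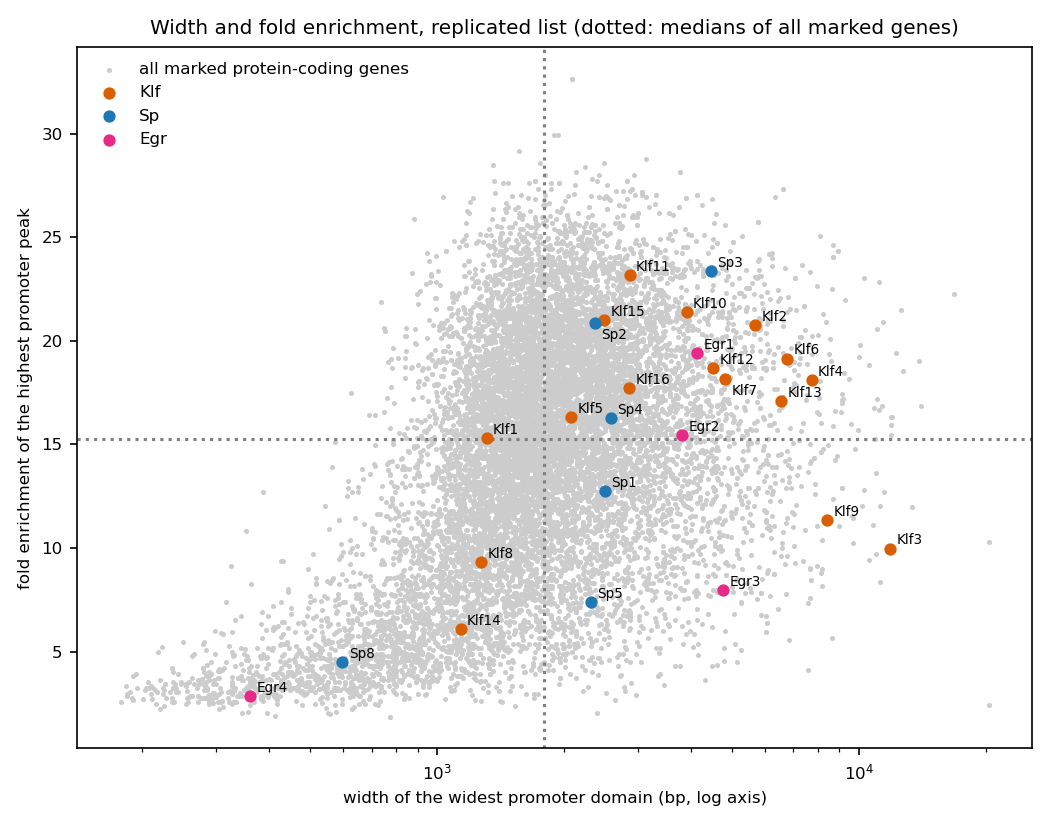
Width of the widest promoter domain (bp, log axis) against the fold enrichment of the highest promoter peak, replicated list. Grey points are all 13657 marked genes and coloured points the 26 marked Klf, Sp and Egr genes. Dotted lines are the medians of all marked genes, 1799 bp and 15.3. Klf3 and Klf9 are wide with a fold enrichment below the median, Klf11 and Sp3 are the highest, and Egr4 and Sp8 lie at the narrow and weak end.

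In fold enrichment the members stood close to other genes. Their median was 16.7, against 15.3 over all marked genes, and 17 of 26 lay above the latter. Over the 25 members marked in all 4 lists it was 19.1 in pool G and 13.9 in pool H, against 18.4 and 12.9 over all such genes. The distance between members and all genes was thus smaller than that between the pools. When the peak nearest to a start was used in place of the highest, the members' median was 12.3, below the 14.8 of all genes. The highest member was Sp3 with 23.4, just under the bound of the strongest 5%, so that 0 of 26 members were among them. Across the marked members, log2 width and log2 fold enrichment were correlated with Pearson's r of 0.63 and Spearman's rho of 0.38 (n = 26 genes of the same list), against 0.54 and 0.41 over all marked genes.

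The members highest in fold enrichment were other genes than the widest, with Klf2 in both groups of 6. Sp3, the broadly expressed partner of Sp1, had 23.4 in the replicated list, 26.5 in pool G and 20.1 in pool H, in a domain of 4463, 4650 and 4480 bp. Klf11 and Klf10, factors of the TGF-beta response that recruit Sin3, had 23.2 and 21.4 in the replicated list. In pool G these were 25.6 for Klf11 and 27.0 for Klf10, and in pool H 19.8 and 18.3. Their domains were 2865 bp for Klf11 and 3914 bp for Klf10 in the replicated list, 2791 and 4584 bp in pool G, and 2816 and 3760 bp in pool H. Klf2 had 20.8 in the replicated list, 24.5 in pool G and 17.2 in pool H. All of these were lower in pool H's list, as were most genes.

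Klf15, a regulator of amino acid and glucose use in heart muscle, went against that order. Its fold enrichment was 21.0 in the replicated list, 15.1 in pool G and 19.1 in pool H, in a domain of 2492, 2587 and 2374 bp at chr6:90461982-90464473. Only Klf3, with 10.3 in pool G and 13.7 in pool H, was also lower in pool G, where 3.93% of the 13245 genes marked in both pools were lower. A ratio of pool G over pool H as low as that of Klf15 was found in 0.513% of these genes, and one as low as that of Klf3 in 0.4%. At both genes peaks near the start were joined in pool G's list and separate in pool H's: 1 Klf15 peak ran from position -656 to 1931 in pool G, and 2 peaks from -592 to -85 and from 14 to 1782 in pool H. Fewer promoter peaks in pool G than in pool H were found at 12.5% of genes with the lower fold enrichment in pool G and at 10.9% of all genes. Klf3 was among these, with 2 in pool G and 3 in pool H. Klf15 was not, with 2 in each, as pool G held a further peak from 5387 to 5897 near a later start. Klf7, Klf11, Klf16, Sp3, Sp4 and Egr3 also had fewer promoter peaks in pool G, and their fold enrichment was higher there. Whether the merging of peaks bears on the fold enrichment of Klf15 and Klf3 was not tested.

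**Figure D4:**
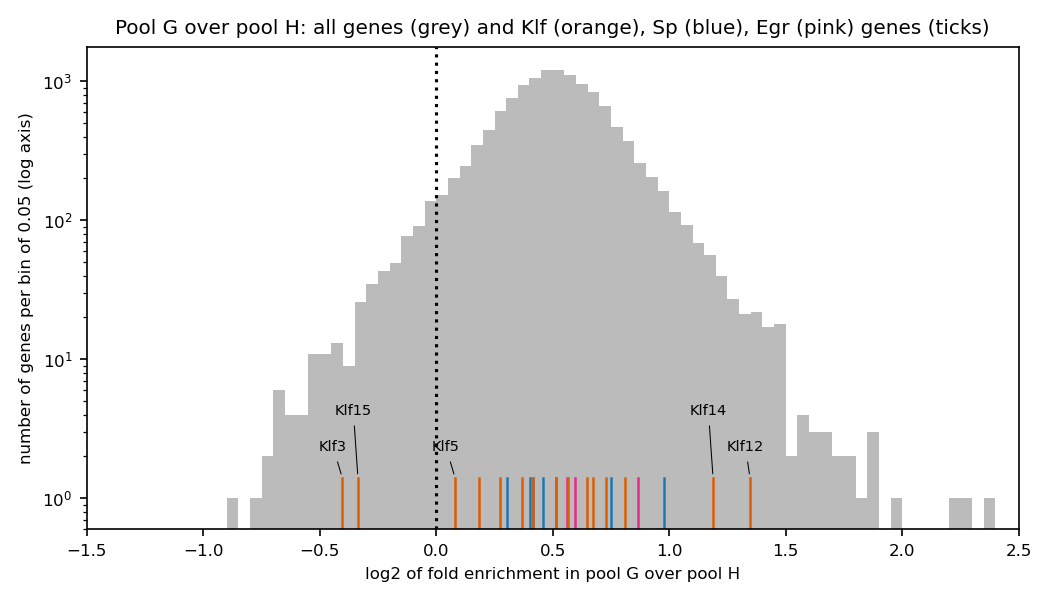
Fold enrichment in pool G over pool H on the log2 scale. Grey bars count all 13245 genes marked in both lists (log axis), and coloured ticks are the 25 Klf, Sp and Egr genes marked in both. The dotted line is equality. Klf3 and Klf15 lie to its left at -0.40 and -0.34, and Klf12 lies farthest to the right at 1.35.

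At the other end, Klf12, a CtBP-recruiting repressor, had a fold enrichment of 24.6 in pool G and 9.68 in pool H, and a ratio at or above this was found in 0.627% of genes. Its widths of 4713 bp (G) and 4391 bp (H) were close, so the lists differed in its fold enrichment more than in its width. As the signal values of different lists may not share a scale, this is not read as a difference in the mark between the pools. The median ratio of pool G over pool H was 1.43 in the members and 1.42 in all genes. Width was larger in pool G in 21 of the 25 members marked in both, against 88.7% of genes, and the exceptions were Klf11, Klf16, Sp4 and Sp8. Across the 25, log2 widths of the pools had Pearson's r of 0.98 and Spearman's rho of 0.98, and log2 fold enrichments 0.84 and 0.72. The points are genes of the same 2 lists and not independent samples.

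Among the Klf genes by role, the 6 activators had medians of 5258.5 bp in width and 18.1 in fold enrichment. Klf7, known from neurons, had 4826 bp in the replicated list, with 4946 and 4441 bp in pools G and H, and Klf5, a factor of smooth muscle and heart remodelling, had 2082, 2161 and 1714 bp. Klf1, the red cell factor that drives beta-globin, had the narrowest domain of the activators, 1313 bp in the replicated list, with 1309 and 1191 bp in pools G and H. It lies at chr8:84902511-84903823, beginning 583 bp after the start, with a fold enrichment of 15.3, 18.0 and 12.6. Epor, the erythropoietin receptor and the marked one of the erythroid markers reported, had a fold enrichment of 8.95 in the replicated list, and the part of red cell precursors in the Klf1 peak was not tested.

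The 3 repressors that recruit CtBP had a median width of 4525 bp, with Klf8 the narrowest at 1272 bp. Klf8, on chromosome X, had 2 separate domains. That at chrX:153359372-153360643, at the start whose RefSeq promoter holds a CArG box, had a fold enrichment of 9.33 in the replicated list, 11.2 in pool G and 7.13 in pool H. The other, at chrX:153237801-153238464 near its first starts, had 4.58, 5.68 and 3.74. The internal start was thus the stronger in every list. The 6 Sin3-recruiting members had a median width of 3389.5 bp and ranged from 8415 bp at Klf9 to 1139 bp at Klf14. Klf14, known as maternally expressed in the placenta, had a fold enrichment of 6.09, 7.84 in pool G and 3.44 in pool H. Klf16 had 2856 bp and a fold enrichment of 17.7.

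Sp1 to Sp4, the broadly acting Sp genes, had medians of 2541 bp in width and 18.6 in fold enrichment. Sp1 measured 2501 bp in the replicated list, 2621 bp (pool G) and 2347 bp (pool H), with a fold enrichment of 12.7, and Sp4 2581, 2654 and 2756 bp with 16.3. Sp2 had 3 separate domains, and no peak within 1000 bp of its most upstream start. The strongest, chr11:96976397-96978763 at its second start, was 2367 bp wide with a fold enrichment of 20.9 in the replicated list, 2378 bp with 23.9 in pool G and 2303 bp with 17.9 in pool H. In pool G the widest Sp2 domain was another, at chr11:96966946-96969764, with 2819 bp and a fold enrichment of 6.05, where the replicated list held 2 separate domains. Of Sp5 to Sp9, Sp5, a target of Wnt signalling, had 2313 bp with 7.40 in the replicated list, 1433 bp with 11.0 in pool G and 1093 bp with 5.58 in pool H. Sp8 had 597 bp with 4.52, 598 bp with 5.87 and 602 bp with 3.49, in a peak beginning 388 bp after its first start. Both lay below the median fold enrichment of all genes in each list.

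The Egr genes ranged from wide to nearly absent. Egr1, the best known immediate-early gene of the family, had 4134 bp in the replicated list, 4425 bp (pool G) and 4013 bp (pool H), with a fold enrichment of 19.4, 24.2 and 16.4, over 65.2% of its gene body. Egr2, which drives myelination and hindbrain patterning, had 3814 bp with 15.4, 3865 bp with 18.7 and 3206 bp with 12.4. Its domain is a single peak at chr10:67535392-67539205 that covers both printed promoters with a CArG box. Egr3, required for muscle spindles, had 4771 bp in the replicated list, and 4863 and 4831 bp in pools G and H, 4847 ± 22.6 bp over them. Its fold enrichment was low, at 7.98, 11.2 and 6.17. In pool H the same domain held a stronger peak of 9.45 outside the promoter window, from -3134 to -1225, whereas pool G had 1 peak throughout. The mark of Egr3 lay mostly before the gene, from position -3015 to 1756. Among the members in the widest 5% this was also so at Klf12, from -2537 to 1988. In width, Egr1, Egr2 and Egr3 lay above the median of all genes in each list, and Egr4 below it where it was marked.

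Away from starts, peaks near these genes were mostly small. Peaks more than 1000 bp from any annotated transcript start, in a member's body or within 50000 bp of it, numbered 40, near 19 members. Their median fold enrichment was 3.18 and their median width 455 bp, and 4 had a fold enrichment of at least 10. These 4 were the peaks near Sp7 and inside Sp6 given above, 1 centred 17448 bp after the Klf4 start (838 bp, 13.2) and 1 centred 27784 bp after the Egr1 start (1230 bp, 13.7). The Klf4 peak had 14.9 in pool G and 11.5 in pool H, and the Egr1 peak 16.3 and 11.0. Klf13 had 4 intronic peaks of this kind, with fold enrichments from 2.84 to 6.61. The strongest distal peaks were thus found in both pools. Over all peaks of the replicated list, at starts or away from them, the median fold enrichment was 8.37 and the median width 1021 bp. Distal peaks were not counted near other genes, so whether their number or size near the members is unusual was not tested.

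**Figure D5:**
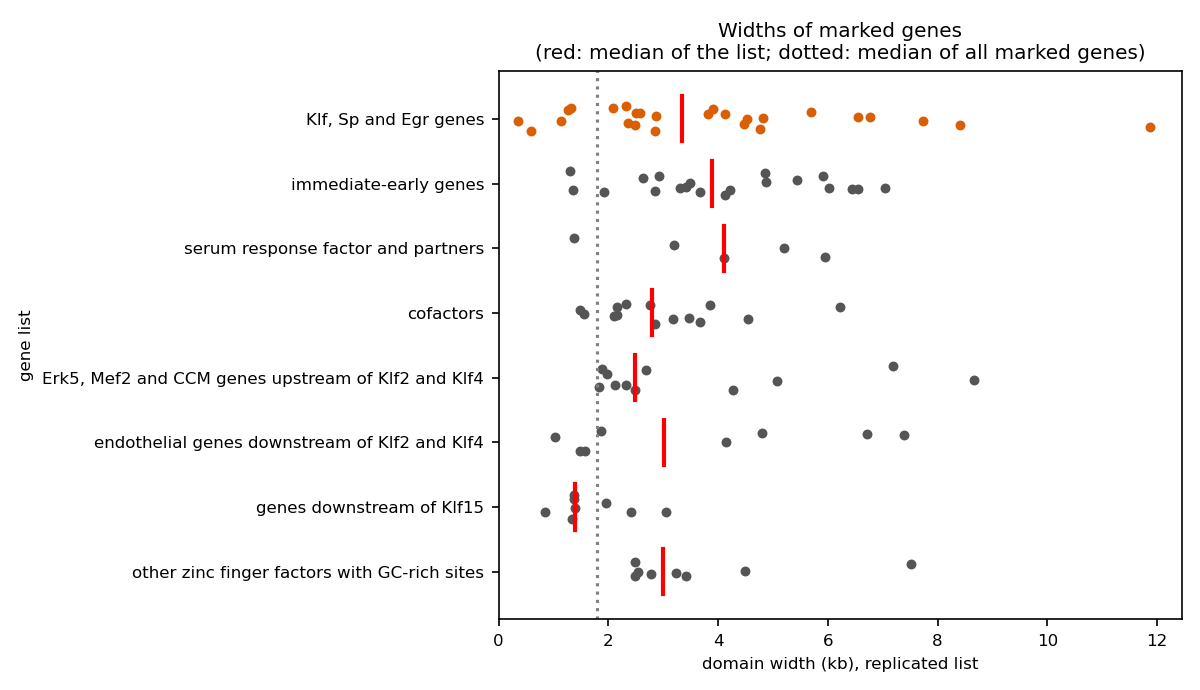
Domain width in kb of each marked gene in the replicated list, for the Klf, Sp and Egr genes (orange) and 7 lists of related genes (grey). Red lines are medians of each list and the dotted line is the median of all marked genes, 1799 bp. The genes downstream of Klf15 lie lowest, with a median of 1389.5 bp, and vertical spread within a list carries no value.

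Genes that work with these factors were set beside them, all in the replicated list, where 63% of all genes were marked and 5% of those lie in the widest 5%. Of the other immediate-early genes 20 of 21 were marked, all but Npas4, a neuronal activity gene. Their median width was 3896 bp, and 8 were among the widest 5%. The widest were Zfp36, which destabilises cytokine mRNA, with 7034 bp, and the phosphatase gene Dusp1 with 6557 bp, and the highest in fold enrichment the AP-1 genes Jund with 24.1 and Fosl2 with 22.5. Serum response factor and its partners had 5 of 5 marked and a median width of 4109 bp, with Elk3 at 5952 bp, the coactivator Myocd at 5200 bp, and Elk4 and Elk3 highest in fold enrichment at 21.0 and 13.2. The immediate-early list thus had a median close to that of the Egr genes (3974 bp).

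All 14 cofactor genes were marked, with medians of 2801 bp in width and 21.3 in fold enrichment. The widest were Sin3a, a scaffold of the Sin3 complex, with 6222 bp and the acetyltransferase gene Kat2b with 4537 bp, and the highest Sin3b with 29.2 and the ubiquitin ligase gene Wwp1 with 26.2. All 11 genes of the Erk5, Mef2 and cerebral cavernous malformation (CCM) pathways, which act upstream of Klf2 and Klf4 in endothelium, were marked, with a median width of 2483 bp. Mef2d, whose product binds MEF2 sites such as that printed for Klf2, had 8657 bp and 22.5, Heg1 7180 bp, and Pdcd10 22.6 in a domain shared with Serpini1. The pools differed in both widths, with 9273 bp for Mef2d and 8340 bp for Heg1 in pool G against 4906 and 4422 bp in pool H. The cofactors' median fold enrichment lay above the 15.3 of all marked genes, and 3 genes of this pathway were in the widest 5%.

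Of genes downstream, all 8 endothelial targets of Klf2 and Klf4 were marked, with a median width of 3007.5 bp and 3 among the widest 5%. S1pr1, a receptor for a blood lipid, had 7388 bp and 16.0, Thbd, which encodes thrombomodulin, 6709 bp, and Gja5 a fold enrichment of 21.2 in a domain shared with Gpr89. All 8 genes downstream of Klf15 were also marked, with a median width of 1389.5 bp, below that of all genes, and none among the widest 5%. Slc2a4, the insulin-responsive glucose transporter, had 3058 bp, and Bckdha 2412 bp in a domain shared with Exosc5. Bckdk, a kinase of branched-chain amino acid breakdown, had a fold enrichment of 19.5, and Bckdhb and Dbt 18.3 each. The 2 target lists lay on either side of the median width of all genes. Of 8 other zinc finger genes with GC-rich sites all were marked, with a median of 2998 bp, Zbtb7a at 7521 bp, Patz1 at 4497 bp with 26.9, and Ctcf at 21.7 in a domain shared with Agrp.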

How the data were processed

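H3K4me3 was measured in 4 libraries of mouse heart, 2 technical replicates each of pools G and H, and the labels give fragments of 200 to 600 bp. The deposited files used were 4 narrowPeak lists on mm10. Per the deposited library notes, both technical replicates of a pool share 1 alignment, and lists were made for pool G, pool H and both pools. The peak caller and its threshold are not given in the sources used here. Nor is read depth, so the values carry no interval for depth. The authors' signal value of each peak, taken as a ratio or fold enrichment over a control, is an assumed reading, since the column is unnamed. The authors' -log10 q-value per peak served for 1 alternative.

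Genes and starts came from GENCODE M21. Windows, joining, widths and CpG classes are defined where first used. Widths and counts are described beside those of all genes, with no test, as there are no values per library and genes are not replicates. Means and SDs are over 2 pools and may be technical. The members, the related lists and the marker lists were chosen with earlier results of these data known. Named were the 6 widest and 6 highest members, unmarked members, members that differ between lists, members with several domains, and, per related list, the 2 widest, the 2 highest and the unmarked. Further members were named by role, after their values were seen. Mkl1 and Mkl2, 2 of the serum response factor partners, were not matched by symbol. Overlaps and joining were tested on simulated intervals and with bedtools 2.31.1. Python 3.11.15, numpy 2.4.6, pandas 2.3.3 and matplotlib 3.10.9 were used. Alternatives were the other lists, -log10 q of at least 5, windows of 500 and 2000 bp, the longest transcript, gaps of 0 and 3000 bp, the nearest peak, the widest 2% and 10%, the GENCODE start for motifs and, chosen after seeing the data, genes alone in their domain. 1 erythroid marker is not reported here. Protein sequences were not analysed here.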

Additional observations from a re-analysis of the deposited data

How the results depend on the processing

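The number of marked members lay between 25 and 27 under every alternative run. The median width of the members stood above that of all marked genes in each. It was 2819 bp in pool G's list (all genes 1892 bp), 3814 bp in the pseudoreplicated list (1801 bp), 3698 bp with -log10 q of at least 5 (1790 bp), 3814 bp with a window of 500 bp (1804 bp), 2865 bp with a window of 2000 bp (1795 bp) and 2773 bp with no gaps joined (1627 bp). Part of this shift follows from which narrow members are counted, since Egr4 drops out in 2 of these settings, Klf1 in 1, and Sp9 enters in 2. The number among the widest 5% was 5 with gaps of 3000 bp joined, where the bound was 5798 bp, and 5 were among the widest 2%, against 2.01% of genes. It was 8 to 11 under the other alternatives, and 13 were among the widest 10%. The median fold enrichment was 12.3 with the nearest peak, below the 14.8 of all genes, and above all genes in the others. Over genes alone in their domain the members' values were the same and all genes' medians were 1700 bp and 14.6. Of 230 single widths under the alternatives 175 stayed within the spread between pools, and of 204 fold enrichments 190 did. These tallies are not independent support. The spread was taken from the pools' own lists, which are themselves among the alternatives, and the pseudoreplicated list shares most of its peaks with the replicated list. Widths moved most with no gaps joined, 16 of 26, and in pool H's list, 15 of 25, while none moved with the other windows. This spread is wide where the pools differ, so Klf3 counted as unmoved at 7884 bp with -log10 q of at least 5. Counts for the 7 related lists stayed within 1.5 times in all 49 cases, which could hardly fail, as nearly all of these genes were marked. No paired analysis was possible because the technical replicate numbers that the pools share in the labels are merged within each peak list. Leaving out 1 pool is given by the other pool's own list. With 2 pools and no read depth, a peak missing from 1 list may lie below that list's threshold.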
